A study of Mus musculus with 8 samples.

Results

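The 37 genes described here are the stress sensors of the endoplasmic reticulum, the chaperones and degradation factors they induce, and the genes of the Atf4 branch. They were chosen by name: each probe that is not an array control and whose gene name in the scanner files is 1 of the 37 was taken, and the brightest probe represented its gene. All 37 were matched, by 49 probes, and all 37 were well above background on all 8 arrays, out of 14865 genes tested in all. RNA came from livers of bl6 mice aged 12 weeks and kept on chow, collected on day 6 after adenoviral transduction, and was hybridised to single-colour Agilent arrays. The 4 control arrays are from mice given the control construct (pblockITcontrol), and the 4 shRaly arrays from mice given a short hairpin construct against Raly (pblockITshRaly). Both groups thus carry virus, at a labelled amount of 2e+09 with no unit. No untreated liver was analysed here. Whether each array is a different mouse is not stated, so a p-value here speaks only for the spread among these 8 arrays, which may be technical. Whole liver is a mixture of cells, and fewer cells of a type cannot be told apart from less RNA per cell.

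Secretory cells such as hepatocytes fold large amounts of protein in the endoplasmic reticulum. When unfolded protein accumulates there, 3 membrane-bound sensors respond. Atf6 moves to the Golgi and is cut to release a transcription factor for chaperone genes, Ern1 (IRE1) splices the messenger of Xbp1, and Eif2ak3 (PERK) phosphorylates a translation factor, which favours translation of Atf4. Cleavage, splicing and phosphorylation leave no direct trace in an array signal, which follows the amount of RNA.

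Between 45.9% and 51.1% of the spots that are not controls were well above background on each array, the lowest share on shRaly 2. Raly itself stood at 62.5% of the control level in shRaly livers (log2 fold change -0.68, SE 0.15, limma adjusted p = 0.0750). On shRaly 1 to 4 it was 51.8%, 80.9%, 58.3% and 62.7% of the control mean, and the controls lay between 84.3% and 112%. Without shRaly 2, Raly passed the threshold (adjusted p = 0.0299). All 12 hepatocyte markers examined were measured, and their median log2 fold change was -0.03. They ran from -0.47 (Apoa1) to 0.44 (Tat), 5 above 0 and 7 below. An unadjusted limma p under 0.05 was reached by 4, against 16.1% of all genes. Over the 9 lists of cell type markers the medians ran from -0.20 (stellate cells) to 0.27 (neutrophils). By limma 0 markers of any list passed the threshold, an adjusted p under 0.05, against 1.21% of all genes. On the slide, row 1 held every control and row 2 every shRaly array, and an effect of the row cannot be told apart from that of the group. Within each row the slide column was the replicate number.

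Atf6 was lower in the shRaly livers, to 47.9% of the control level. As a percentage of the control geometric mean, its signal was 118%, 99.99%, 86.7% and 98.2% on control 1 to 4, and 40.3%, 57.4%, 49.7% and 45.8% on shRaly 1 to 4. The highest shRaly array lay well below the lowest control array, and the groups did not overlap. The group means were 101% ± 12.7 (SD, n = 4) and 48.3% ± 7.19 (SD, n = 4). The log2 fold change was -1.06 (SE 0.13, 95% interval -1.37 to -0.76, limma adjusted p = 0.0171), which is 52.1% less signal (95% interval 40.8% to 61.2%). It was the only 1 of the 37 genes to pass the threshold. Across the array 1.21% of genes passed, 0.901% lower and 0.309% higher, and 42 genes that passed as lower had a larger fall than Atf6.

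A single probe measured Atf6. The files place it at chr1:172635311-172635370 (mm9), with its first base at position 6680 of the transcript. Other stretches of the transcript were not measured. The call was lost without control 2 (adjusted p = 0.0555) and without shRaly 4 (0.0585), and it held in the other 6 leave-outs of a single array. A limma fit on all 8 arrays with a block for the replicate number, which is the slide column, also lost it (adjusted p = 0.0757). The log2 fold change ran from -1.15 to -0.98 over the 8 leave-outs, so its size moved little. The shRaly 2 array, on which Raly was least reduced, also had the highest Atf6 signal of the shRaly arrays. Both genes had their lowest value of all 8 arrays on shRaly 1, as had 22.3% of all genes. On shRaly 3 and 4 the order was opposite, with Raly at 58.3% and 62.7% and Atf6 at 49.7% and 45.8%. A relation between the genes was not tested over so few arrays.

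**Figure D1:**
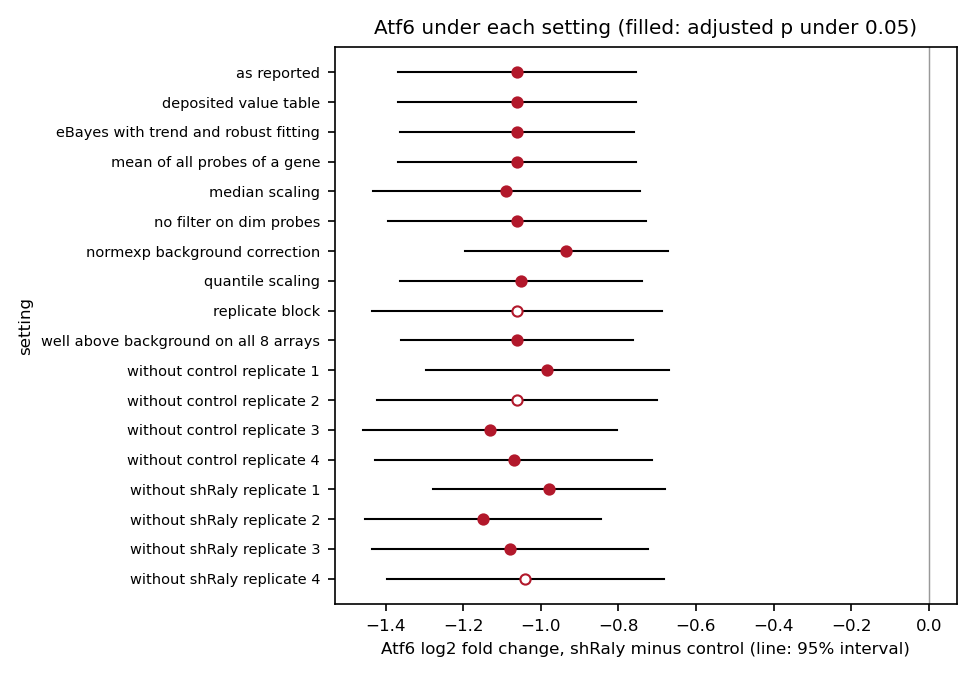
Log2 fold change of Atf6 (shRaly minus control, x axis) with its 95% interval (line) under the reported setting, 9 other settings and 8 leave-outs of a single array (y axis). Filled points have a limma adjusted p under 0.05. All points lie between -1.15 and -0.93, and 3 of the alternatives miss the threshold.

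The other sensors did not pass the threshold. Atf6b, the paralog of Atf6, had a log2 fold change of -0.05 (95% interval -0.30 to 0.19, limma adjusted p = 0.860), and its arrays ran from 90.7% to 107% in controls and from 81.2% to 106% in shRaly livers. Eif2ak3 was at 85.5%, 118%, 104% and 94.997% on control 1 to 4 and at 91.7%, 104%, 94.6% and 87.5% on shRaly 1 to 4. Every shRaly value fell inside the range of the controls (log2 fold change -0.09, 95% interval -0.35 to 0.18, adjusted p = 0.766). Creb3l3 encodes a liver-enriched relative of Atf6 that is also held in the membrane and released by cleavage. Its control arrays had 101%, 104%, 96.4% and 98.8%, a narrow spread, and the shRaly arrays 90.3%, 102%, 79.9% and 98.7%. Here shRaly 1 and 3 lay below the controls and shRaly 2 and 4 among them (log2 -0.12, 95% interval -0.34 to 0.10, adjusted p = 0.595).

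Ern1 was at 81.5%, 137%, 113% and 79.7% on control 1 to 4 and at 113%, 136%, 103% and 105% on shRaly 1 to 4. The controls fell into a higher pair, 2 and 3, and a lower pair, 1 and 4, and the shRaly arrays lay among them (log2 0.19, 95% interval -0.24 to 0.61, adjusted p = 0.666). Ern1 has 4 probes on the array, and its direction depended on which was read. A second probe, well above background on 4 control arrays and 1 shRaly array, gave -1.12, and a further probe gave -0.16. With the mean of the probes that passed the filter the Ern1 value was -0.36 (SE 0.30, adjusted p = 0.601).

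Xbp1, the transcription factor whose messenger Ern1 splices, was at 95.05%, 103%, 93.9% and 109% on control 1 to 4 and at 78.4%, 89.8%, 81.5% and 74.0% on shRaly 1 to 4. The groups were apart, with the highest shRaly array (2) under the lowest control (3), yet by limma Xbp1 did not pass the threshold (log2 -0.31, SE 0.10, 95% interval -0.52 to -0.09, adjusted p = 0.163). The array gives no separate value for the spliced form.

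Set against each of the other 5 sensors and transducers on the same array, Atf6 was lower in shRaly livers every time. The difference between the groups in the log2 ratio was -1.01 over Atf6b, -1.25 over Ern1, -0.98 over Eif2ak3, -0.95 over Creb3l3 and -0.75 over Xbp1. Each ratio separated the groups (exact two-sided permutation test, p = 0.0286 for each, the smallest possible with 4 against 4 arrays, and 0.0286 after adjustment over the 5 comparisons). The ratio to Ern1 rests on the brightest Ern1 probe, and with the mean of its probes Ern1 itself stood at -0.36. The separation of Atf6 alone already gives this p. The list of 6 had a median log2 fold change of -0.10, against -0.02 over all genes tested. With the mean of all probes of a gene that median was -0.21.

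**Figure D2:**
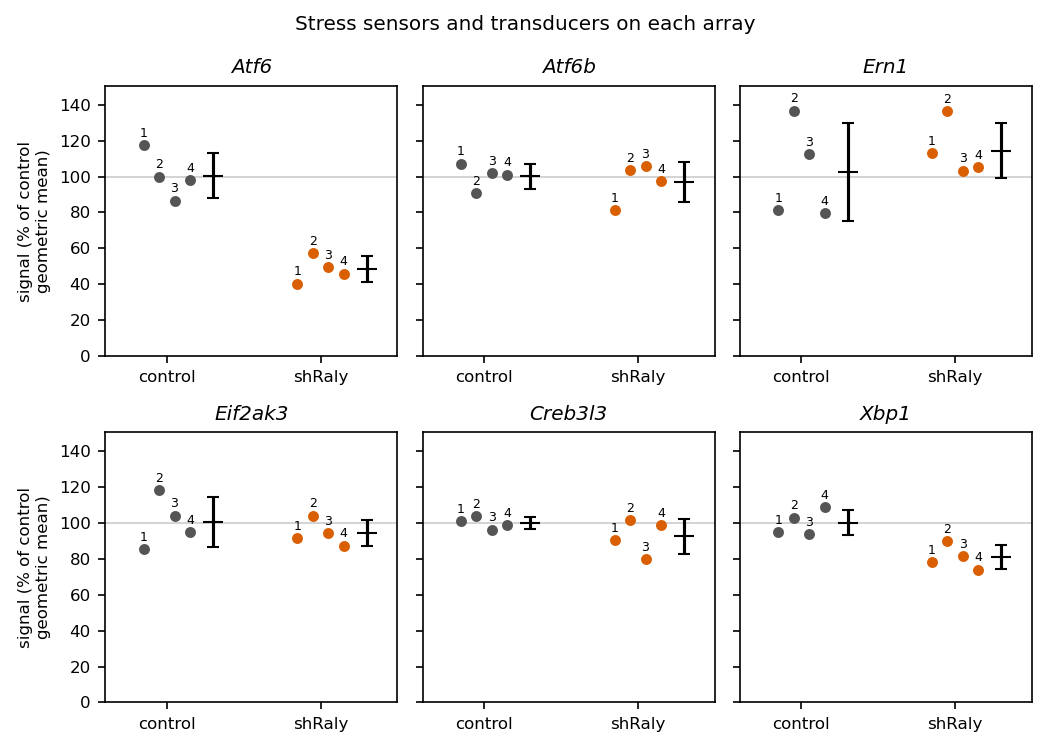
Signal of the 6 sensors and transducers on each array, as a percentage of the control geometric mean (y axis from 0), for control and shRaly arrays (x axis). Points are single arrays with their replicate number, and bars are the mean and SD of 4. The 4 shRaly values of Atf6 lie between 40.3% and 57.4%, below all controls. Those of Xbp1, between 74.0% and 89.8%, also lie below all controls, while those of Atf6b, Ern1, Eif2ak3 and Creb3l3 overlap the controls.

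The best known binding site of Atf6 is the ER stress response element (ERSE): CCAAT, bound by NF-Y, then 9 bases of any kind and CCACG, bound by Atf6 or Xbp1. Promoter windows of 300 bases, from 250 before to 50 after the start of transcription, were available for 33 of the 37 genes (RefSeq, GRCm38.p6). Atf6, Manf, Hyou1 and Derl1 were not matched. Searched on both strands, the exact element stood in the window of 9 of the 33 genes, and in 39 of all 32851 windows (0.119%). It was found in 7 of 12 chaperone and folding genes, 2 of 9 degradation and translocation genes, 0 of 5 sensors and 0 of 7 Atf4-type genes. The matches are printed because they mark which genes carry the sequence that Atf6 is known to bind. Each is shown 5′ to 3′ along the strand on which the element reads CCAAT to CCACG, with the element in capitals and 10 flanking bases on each side, all upstream of the start site.
Hspa5, chr2:34772015-34772053, + strand: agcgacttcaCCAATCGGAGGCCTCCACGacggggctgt
Hsp90b1, chr10:86705628-86705666, - strand: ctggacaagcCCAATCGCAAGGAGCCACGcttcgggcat
Hsp90b1, chr10:86705523-86705561, + strand: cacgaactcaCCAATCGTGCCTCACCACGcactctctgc
Calr, chr8:84847065-84847103, + strand: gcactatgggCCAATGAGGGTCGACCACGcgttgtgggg
Canx, chr11:50325790-50325828, - strand: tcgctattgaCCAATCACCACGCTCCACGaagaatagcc
Pdia6, chr12:17266481-17266519, + strand: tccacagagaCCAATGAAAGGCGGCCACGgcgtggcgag
Dnajc3, chr14:118937817-118937855, + strand: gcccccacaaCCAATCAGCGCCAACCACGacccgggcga
Creld2, chr15:88819510-88819548, - strand: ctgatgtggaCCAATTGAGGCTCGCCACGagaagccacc
Derl3, chr10:75893232-75893270, - strand: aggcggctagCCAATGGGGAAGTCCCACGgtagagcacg
Syvn1, chr19:6046522-6046560, + strand: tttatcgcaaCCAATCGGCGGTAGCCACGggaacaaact

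A second form of the element, ERSE-II (ATTGG, 1 base of any kind and CCACG, both strands), was in 12 of 32851 windows (0.0365%) and in those of Herpud1 and Dnajb11. It shares its CCACG end with the first form, and none of the 33 windows searched held both. The Dnajb11 match lies after the start site and is not shown. The Herpud1 match stands 52 bases before its start site, with the element in capitals.
Herpud1, chr8:94386367-94386397, + strand: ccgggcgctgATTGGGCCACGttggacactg

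The unfolded protein response element TGACGTGG, read by Xbp1 and Atf6, was in 0.676% of all windows and in none of the 33. A match is a description of letters, and a window without one says only that these letters are not in it.

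Genes with either form of the element moved in no common direction. Of the 11, 5 had log2 fold changes above 0 and 6 below. By limma 0 were higher and 0 lower past the threshold, against 1.21% of all genes in either direction. Their median was -0.03, with Creld2 highest at 0.36 and Derl3 lowest at -0.35. The 22 genes whose window held neither form had a median of -0.10. Hyou1 (0.39), Manf (0.31), Derl1 (-0.04) and Atf6 (-1.06) had no window and are in neither set, so the split covers only the promoters searched. This motif search was chosen after the values had been seen.

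The chaperones and folding factors, as a list of 14, had 0 genes past the threshold by limma in either direction, against 1.21% of all genes. At an unadjusted p under 0.05 there were 6, a larger share than the 16.1% of all genes. The list was chosen with earlier results of these data known, so that share is a description only. The 14 genes had a median log2 fold change of 0.01, against -0.02 over all genes. They spread over both directions, from -0.42 for Sdf2l1 to 0.39 for Hyou1, and 8 of the 14 intervals spanned 0, 4 lay below it and 2 above it. The list median on single arrays was -0.06 to 0.04 in controls and -0.13 to 0.18 in shRaly livers, so the groups overlapped.

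Hspa5 encodes BiP, the main Hsp70 chaperone of the endoplasmic reticulum and the usual readout of Atf6 activity. It was at 104%, 88.8%, 95.4% and 113% on control 1 to 4 and at 115%, 107%, 101% and 125% on shRaly 1 to 4. The groups overlapped, with shRaly 4 highest (log2 0.16, SE 0.11, limma adjusted p = 0.502). The 95% interval of shRaly over control ran from 94.3% to 133%. Hsp90b1, the Hsp90 chaperone GRP94, was at 88.6%, 110%, 102% and 99.95% on control 1 to 4 and at 99.5%, 92.9%, 107% and 115% on shRaly 1 to 4. The arrays of the groups were interleaved (log2 0.05, 95% interval -0.19 to 0.28, adjusted p = 0.867). Its sign turned without control 1 (-0.011) and without shRaly 4 (-0.0037).

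P4hb, the protein disulfide isomerase that forms and reshuffles disulfide bonds, was at 113%, 98.9%, 95.4% and 94.0% on control 1 to 4 and at 70.4%, 79.6%, 88.3% and 80.0% on shRaly 1 to 4. Its groups did not overlap (log2 -0.33, SE 0.10, adjusted p = 0.161). Pdia3, the isomerase that works on glycoproteins with calnexin and calreticulin, was at 93.6%, 103%, 104% and 99.0% in controls and at 81.9%, 79.6%, 93.2% and 81.4% in shRaly livers. The groups did not overlap, though shRaly 3 lay only just below control 1 (log2 -0.25, SE 0.09, adjusted p = 0.204). Canx, the membrane lectin calnexin, differed the other way, with 104%, 94.9%, 94.9% and 106% on control 1 to 4 and 115%, 110%, 131% and 124% on shRaly 1 to 4. All 4 shRaly arrays lay above the controls (log2 0.26, SE 0.09, adjusted p = 0.215). None of these genes passed the threshold.

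The genes named in the rest of this paragraph were chosen after their values were seen. Hyou1, a large nucleotide exchange factor for BiP, was at 115%, 89.7%, 80.5% and 120% in controls and at 112%, 132%, 124% and 160% in shRaly livers. Only shRaly 1 lay within the range of the controls (log2 0.39, 95% interval 0.02 to 0.75, adjusted p = 0.288). Creld2, a stress-induced ER protein, was at 117%, 93.8%, 84.9% and 107% in controls and 118%, 124%, 107% and 173% in shRaly livers (log2 0.36, adjusted p = 0.328). Manf, a secreted protective factor, stood at 0.31 (adjusted p = 0.379), with shRaly 4 at 157%. Going the other way, Sdf2l1, a partner of the co-chaperone Dnajb11, was at 61.7%, 65.0%, 96.0% and 81.0% in shRaly livers and at 85.4% to 118% in controls (log2 -0.42, adjusted p = 0.284). Dnajc3, the co-chaperone p58IPK, was at 68.0%, 72.8%, 91.4% and 93.6% in shRaly livers and at 93.6% to 108% in controls (log2 -0.31, adjusted p = 0.271). The remaining members lay closer to 0: Pdia4 at 0.14, Pdia6 at -0.03, Dnajb11 at -0.05 and the lectin Calr at -0.14.

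**Figure D3:**
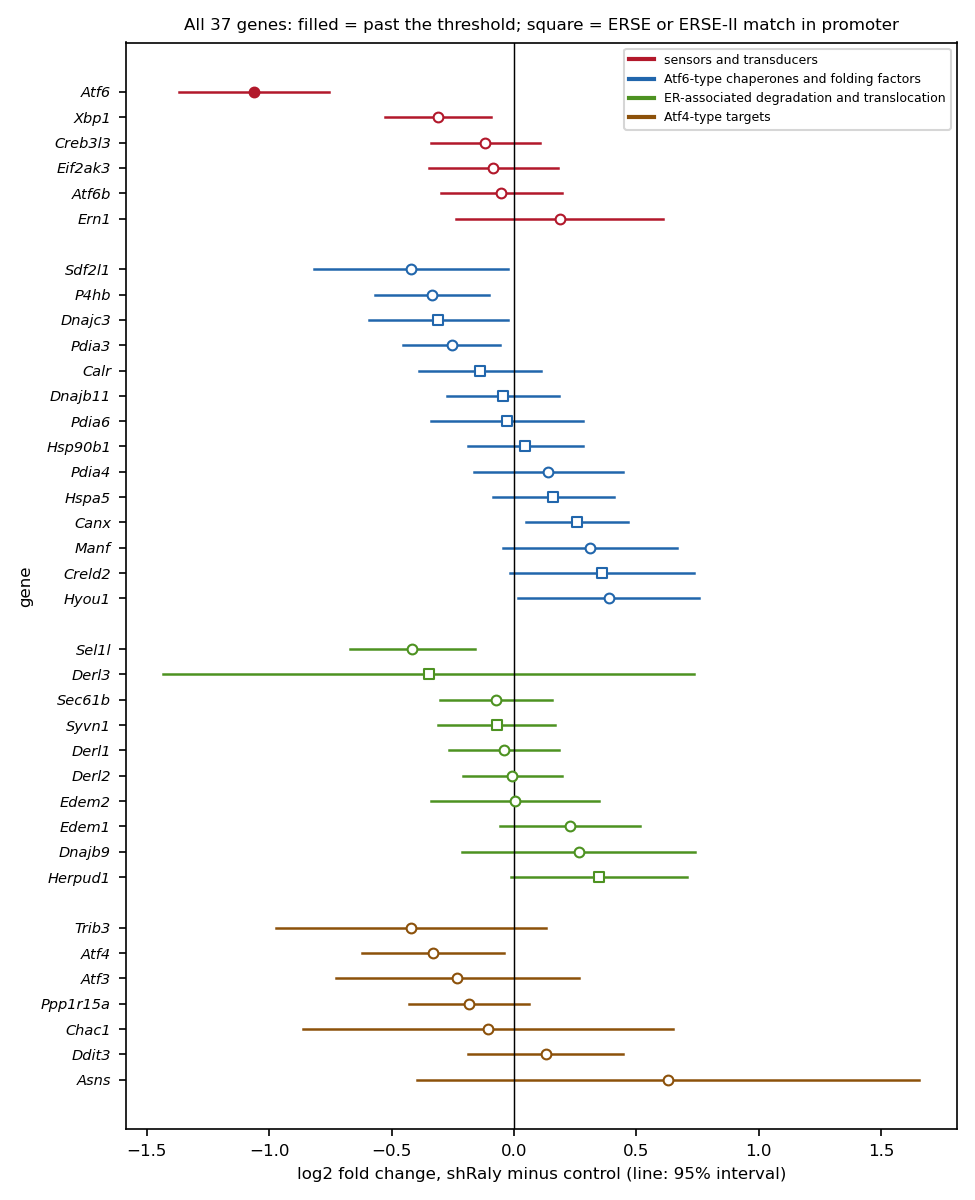
Log2 fold change of each of the 37 genes (shRaly minus control, x axis) with its 95% interval (line), grouped by list on the y axis. Filled points passed the threshold and squares mark genes with an ERSE or ERSE-II match. Only Atf6, at -1.06, is filled, and the chaperones spread evenly from -0.42 to 0.39.

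Genes of ER-associated degradation, which return misfolded proteins to the cytosol for the proteasome, and of translocation made up 10 members. By limma 0 rose and 0 fell, against 1.21% of all genes past the threshold. At an unadjusted p under 0.05 there was 1, against 16.1% of all genes, and the median log2 fold change was -0.02, as over all genes. Sel1l, the adaptor of the Hrd1 ubiquitin ligase, was at 117%, 90.5%, 89.2% and 106% on control 1 to 4 and at 67.9%, 80.0%, 74.8% and 77.9% on shRaly 1 to 4. The groups did not overlap (log2 -0.41, SE 0.11, 95% interval -0.67 to -0.16), and the adjusted p was 0.125. Syvn1, the Hrd1 ligase itself, stood at -0.07 (95% interval -0.31 to 0.17, adjusted p = 0.795).

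Herpud1, a scaffold of the degradation complex and a well known target of the response, was at 92.5%, 94.1%, 94.96% and 121% on control 1 to 4 and at 96.0%, 130%, 134% and 156% on shRaly 1 to 4. Control 4 stood away from the other controls and shRaly 1 lay among them (log2 0.35, SE 0.16, adjusted p = 0.326). Edem1, a mannosidase-like factor that selects glycoproteins for degradation, was at 94.0%, 85.0%, 103% and 122% in controls and at 107%, 110%, 125% and 127% in shRaly livers. The groups overlapped through control 4 (log2 0.23, SE 0.13, adjusted p = 0.415). Dnajb9, a BiP co-chaperone, stood at 0.26 (adjusted p = 0.572), and its second probe at 0.56. Edem2 stood at 0.00, Derl1 at -0.04, Derl2 at -0.01 and Sec61b, a subunit of the translocation channel, at -0.07.

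Derl3, a member of the derlin family of degradation channels, had the largest spread of any member among the controls (SD 1.03 on the log2 scale), and 0.51 among the shRaly arrays, where Asns had 0.71. Its controls were at 53.2%, 214%, 158% and 55.5% and its shRaly arrays at 65.6%, 53.6%, 91.1% and 119%. The 95% interval of its log2 fold change ran from -1.43 to 0.74, which is 37.1% to 166% of the control level, a wide range with 4 arrays a group. Control 2 and control 3 were the high arrays.

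**Figure D4:**
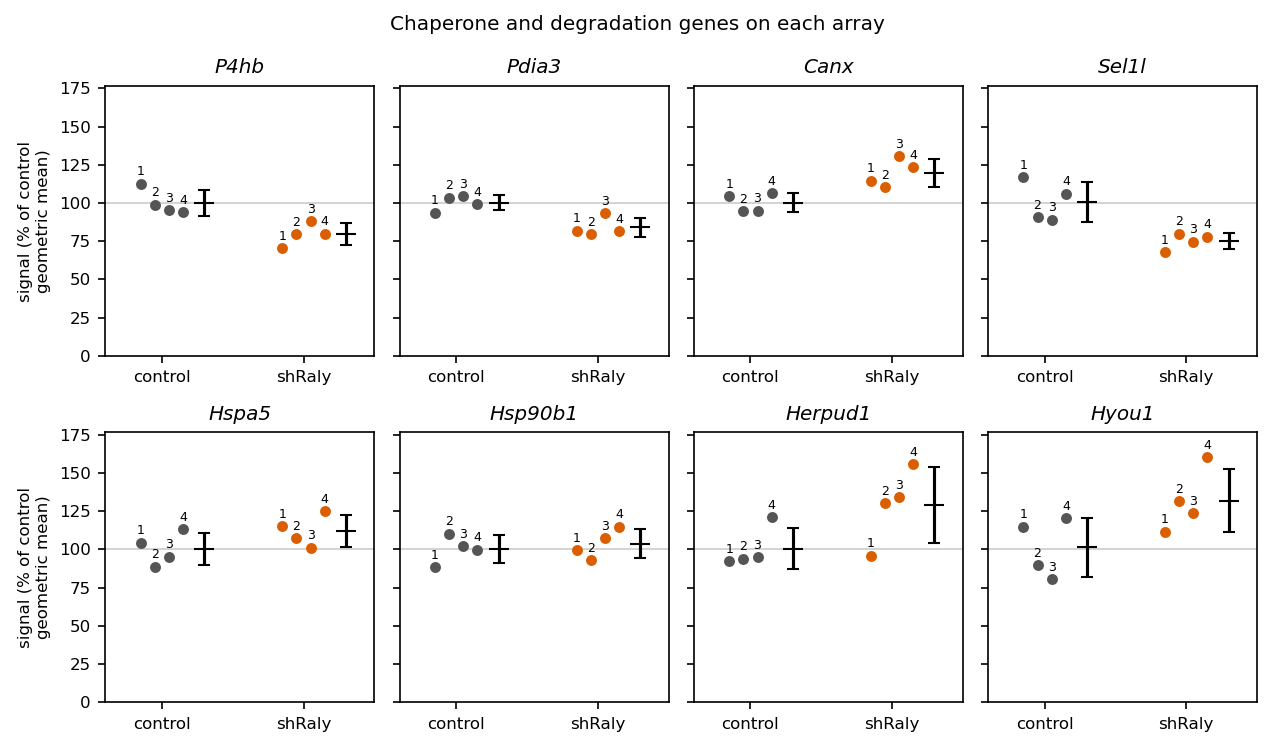
Signal of 8 chaperone and degradation genes on each array, as a percentage of the control geometric mean (y axis from 0), for control and shRaly arrays (x axis). Points are single arrays with their replicate number, and bars are the mean and SD of 4. P4hb, Pdia3 and Sel1l lie lower and Canx higher on all 4 shRaly arrays, with no overlap, and Hspa5, Hsp90b1, Herpud1 and Hyou1 overlap between the groups.

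The Atf4 branch raises amino acid synthesis and stress genes when translation is slowed. Its 7 members had 0 genes past the threshold by limma, against 1.21% of all genes, and 1 at an unadjusted p under 0.05, against 16.1%. Their log2 fold changes had a median of -0.18, against -0.02 over all genes. Atf4, the transcription factor, was at 85.7%, 111%, 103% and 102% on control 1 to 4 and at 83.2%, 94.4%, 75.8% and 67.2% on shRaly 1 to 4. The groups overlapped through control 1 (log2 -0.33, SE 0.13, adjusted p = 0.255). Ddit3 encodes CHOP, the factor linked to cell death under lasting stress. It was at 124%, 95.7%, 84.1% and 100.4% in controls and at 102%, 116%, 95.9% and 126% in shRaly livers, which overlap (log2 0.13, 95% interval -0.19 to 0.45, adjusted p = 0.699).

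Trib3, a pseudokinase induced by Atf4 and CHOP, was at 73.5%, 141%, 103% and 93.3% on control 1 to 4 and at 57.9%, 95.2%, 96.0% and 59.0% on shRaly 1 to 4. The spread within each group was wide (log2 -0.42, SE 0.24, adjusted p = 0.435). Ppp1r15a, the phosphatase subunit GADD34 that restores translation, was at 103%, 104%, 92.7% and 101% in controls and at 85.8%, 91.1%, 75.3% and 103% in shRaly livers. Of its shRaly arrays, 3 lay below the controls and shRaly 4 among them (log2 -0.18, SE 0.11, adjusted p = 0.452).

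Asns and Chac1, chosen after their values were seen, were the other highly variable members. Asns, asparagine synthetase, was at 96.9%, 105%, 199% and 49.1% in controls and at 75.8%, 229%, 196% and 168% in shRaly livers. Both groups had arrays above and below the control mean (log2 0.63, 95% interval -0.40 to 1.66, adjusted p = 0.532). Chac1, which degrades glutathione, ranged from 46.2% on control 1 to 148% on control 4, and from 82.5% to 105% in shRaly livers (log2 -0.11, adjusted p = 0.910). Atf3, a stress-induced repressor, stood at -0.23 (adjusted p = 0.645).

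Atf4 and CHOP act with C/EBP proteins on a composite site that begins TGATGNAA. On both strands this sequence was in 3.97% of all windows, and in those of 5 of the 33 genes: Asns, Atf3, Chac1 and Trib3, which are 4 of the 7 Atf4-type genes, and Herpud1. The Trib3 match lies after the start site and is not shown. The others are printed along the strand that reads TGATGNAA, with the site in capitals.
Asns, chr6:7693215-7693242, - strand: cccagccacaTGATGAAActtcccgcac
Atf3, chr1:191183426-191183453, + strand: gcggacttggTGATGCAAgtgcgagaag
Chac1, chr2:119351039-119351066, - strand: ctggcaggagTGATGCAAcggcagggaa
Herpud1, chr8:94386307-94386334, - strand: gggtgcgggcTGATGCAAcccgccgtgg

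The 5 genes with this site had log2 fold changes from -0.42 (Trib3) to 0.63 (Asns), with a median of -0.11. Of them 0 passed the threshold, against 1.21% of all genes.

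Over all 37 genes, 14 had log2 fold changes above 0 and 23 (62.2%) below, against 53.8% below among all genes tested. At an unadjusted p under 0.05 there were 10 members, 8 lower and 2 higher. The shares of all genes were 16.1% in either direction, 9.69% lower and 6.41% higher. The groups did not overlap for 6 members, against 10.4% of all genes. Of these, Atf6, Xbp1, P4hb, Pdia3 and Sel1l were lower, against 6.45% of all genes, and Canx was higher, against 3.94%. By the brightest probe of each gene, Atf6 was the only 1 to differ by a factor of at least 2. A dimmer Ern1 probe that passed the filter stood at -1.12, and was well above background on 1 shRaly array.

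Some arrays held the highest or lowest value of many members. On shRaly 4, 11 of the 37 genes had their highest value of all arrays, where 10.4% of all genes had theirs. They were Hspa5, Hsp90b1, Hyou1, Manf, Creld2, Dnajb11, Pdia6, Dnajb9, Herpud1, Edem1 and Ddit3, so 7 were chaperones or folding factors. In 7 of these 11 the highest control was control 4, which shares slide column 4 with shRaly 4. An effect of the column on these counts was not tested. On control 2, another 12 members were highest, among them Ern1, Eif2ak3, Atf4, Trib3, Sdf2l1 and Derl3, where 9.20% of all genes were highest. On shRaly 1 the lowest value was reached by 12 members, Atf6 among them, and by 22.3% of all genes. These counts are descriptions of 8 arrays, and the part of RNA handling or of the time of collection in them was not tested.

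**Figure D5:**
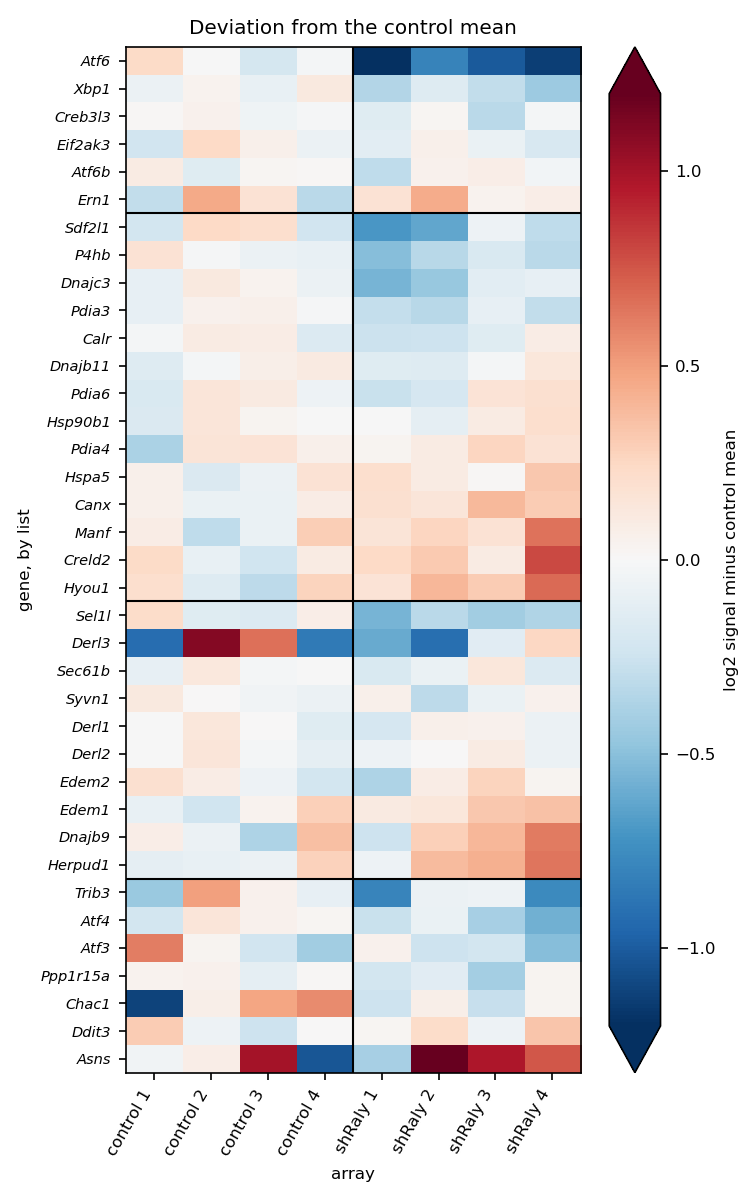
Log2 signal of each gene on each array minus its control mean (colour, red above and blue below), with arrays on the x axis and genes on the y axis, ordered within each list by fold change. Atf6 is blue on all 4 shRaly arrays (40.3% to 57.4% of the control level), and a set of chaperone and degradation genes is reddest on shRaly 4.

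The wider pathway was read from 7 further lists. Of 119 genes, 113 were tested. By limma 0 were higher and 0 lower past the threshold, against 1.21% of all genes in either direction. An unadjusted p under 0.05 was reached by 21, near the 16.1% of all genes. The genes of smallest p in each list are given as values. Atf6 is cut by the site-1 and site-2 proteases, Mbtps1 and Mbtps2. In the list of Atf6 processing and cofactors (11 genes, median -0.03) Mbtps2 stood at -0.25 (adjusted p = 0.238) and Creb3l4, another membrane-bound relative, at 0.40 (0.301).

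Other ER folding genes had a median of -0.12 over 22 genes, with Ero1b, an oxidase that recharges the disulfide isomerases, at -0.43 (SE 0.10, adjusted p = 0.0750) and Wfs1 at 0.24 (0.292). The 19 other translocon and signal peptide genes had a median of -0.08, with Ssr3 at -0.35 (adjusted p = 0.0907) and Ssr4 at -0.30 (0.247), both subunits of the translocon-associated protein complex. The 18 other degradation genes had a median of 0.03, with the lectin Os9 at -0.21 (adjusted p = 0.273) and the ubiquitin-conjugating enzyme Ube2g2 at 0.27 (0.306).

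The 27 other genes of the integrated stress response, which include further kinases of the translation factor and genes induced downstream, had a median of -0.04. Eif2ak1, the kinase that senses heme, stood at -0.47 (adjusted p = 0.118) and the factor Atf5 at -0.59 (0.128). Other genes of the list, chosen after their values were seen, lay the other way, with Ddit4, an inhibitor of mTOR signalling, at 1.13 (adjusted p = 0.156) and the stress hormone Gdf15 at 1.03 (0.172). The 6 Creb3l3 targets had a median of -0.18, with Apcs at -0.43 (adjusted p = 0.388) and the hormone Fgf21 at -0.76 (0.470).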

How the data were processed

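Intensity values are those of Agilent Feature Extraction 11.5.1.1, per the file headers: a processed signal intensity (background-subtracted, spatially detrended, not scaled between arrays) beside mean and background intensities. The deposited table of the series equalled the processed signal at all 62976 spots. Each array's log2 processed signal was centred on its 75th percentile over the 59305 spots that are not controls, outlier spots were dropped, and spots of a probe averaged. A gene was tested if at least 4 of 8 arrays showed a probe well above background, with values on at least 3 per group, and the brightest such probe was used. Names came from accessions through a GRCm38.p6 gene table, and probe positions are mm9. Groups, taken from sample titles, were compared with limma 3.58.1 in R 4.3.3, with Benjamini-Hochberg adjustment over 14865 genes and a threshold of 0.05.

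The members and lists were chosen with earlier results of these data known. Genes given in full were fixed by rule: Atf6, Ern1, Eif2ak3, Xbp1, Creb3l3, Hspa5, Hsp90b1, Atf4 and Ddit3, members past the threshold or without overlap, and the 3 of smallest p in each of 4 lists. From each wider list every gene past the threshold was to be named, or else the 2 of smallest p. The test was checked on simulated data, where it recovered 56% of genes changed 1.5-fold and 72% of those changed 2-fold. Smaller true changes can thus often miss the threshold. The simulated noise was drawn separately for each gene and array, so effects shared by the genes of an array were not in it. The number of arrays limits the precision. Alternatives covered background correction, scaling, filters, probe averaging, the deposited table, variance estimation, a replicate block and leaving out each array. One result on a marker list is not reported here.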

Additional observations from a re-analysis of the deposited data

Results flagged for a closer look

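Herpud1 on the control arrays stood out for its uneven spread. Control 4 was at 121% of the control mean and the other 3 at 92.5% to 94.96%, a gap of 0.903 of the whole range, above Dixon's 95% critical value for 4 samples. Of the 82 groups of values examined (each of the 37 genes and the 4 list medians, in controls and in shRaly livers) it was the only 1. Chance alone flags about 1 group in 20, so 1 flag among 82 groups is no more than chance gives.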

How the results depend on the processing

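Atf6 passed the threshold in 8 of 9 other settings (log2 -1.09 to -0.93, adjusted p from 0.00322) and in 6 of 8 leave-outs (-1.15 to -0.98, adjusted p 0.0123 to 0.0585). With no filter on dim probes it passed only narrowly (limma adjusted p = 0.0498). The deposited table holds the same values as the scanner files, so that setting could not differ. Averaging probes could not change the fold change of Atf6, which has 1 probe. The replicate numbers were not treated as pairing samples, since same-numbered arrays had correlations of their deviations between -0.07 and 0.14. Same-numbered arrays do share a slide column, so a replicate block is also a block by column. With a replicate block Atf6 kept its log2 fold change of -1.06 at an adjusted p of 0.0757, so 0 members passed as lower, and the genes called over the whole array went from 180 to 46. The count of members past the threshold as lower was 0 to 1 over the leave-outs, and as higher it was 0 in every setting. Genes called were 42 with no filter on dim probes, 132 with median scaling, 252 with normexp, 268 with trend and robust fitting, and 17 to 281 over the leave-outs. With the mean of all probes the sensor median moved to -0.21. Of 612 combinations of the other 36 members with an alternative, 0 passed the threshold and the sign turned for 10 genes, with adjusted p from 0.601: Atf6b with normexp (0.075), Ern1 (-0.36), Derl1 (0.0035) and Derl2 (0.0092) with the mean of probes, Derl2 (0.054) and Pdia6 (0.013) with quantile scaling and Edem2 (-0.023) with median scaling. Over the leave-outs Atf6b ran from -0.099 to 0.031, Hsp90b1 from -0.011 to 0.10, Pdia6 from -0.10 to 0.052, Edem2 from -0.084 to 0.13, Syvn1 from -0.11 to 0.011, Derl1 from -0.089 to 0.01, Derl2 from -0.043 to 0.043, Derl3 from -0.65 to 0.019 and Chac1 from -0.48 to 0.083. Raly passed the threshold with normexp (adjusted p = 0.0111), with trend and robust fitting (0.0385) and without shRaly 2 (0.0299). The causes of these changes were not tested. The probe used for each member was well above background on all 8 arrays.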

Other observations

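Genes of the heat shock response outside the endoplasmic reticulum, in the cytosol and in mitochondria, had a median log2 fold change of 0.23 over 11 genes, 7 above 0. By limma 0 passed the threshold, against 1.21% of all genes, and 5 had an unadjusted p under 0.05, against 16.1%. The list median on single arrays was -0.10 to 0.05 in controls and 0.04 to 0.38 in shRaly livers, so the groups overlapped slightly. Hsph1, an Hsp110 chaperone, stood at 0.53 (SE 0.15, adjusted p = 0.133) and Hspa1a, the inducible Hsp70, at 1.01 (SE 0.30, 0.156). The groups did not overlap for either gene, as for 10.4% of all genes. Hspa1a has a near-identical copy, Hspa1b, whose RNA its probe may also bind.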
